A study of Arabis alpina with 23 samples.

Results

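LEAFY (LFY) is the plant transcription factor that turns the cells on the flank of a shoot apex into a flower, and it was followed here through the young axillary buds and the shoot apices of Arabis alpina, a perennial relative of Arabidopsis. The gene is Aa_G61540, the only 1 of the 34220 genes in the deposited expression table that is described as a leafy protein, and its annotation carries the alias Leafy. The material was the Pajares accession for which the labels name no mutant or transgene, grown in long days of 16 h light at 24 °C by day and 18 °C by night. Buds (11 libraries) and apices (12 libraries) came from the same 4 stages, so the series asks how a new bud differs from the apex that bore it. Stage 1 was plants of 4 weeks and stage 2 plants of 8 weeks, and stages 3 and 4 followed after 4 and 7 weeks of cold at 4 °C. There was no group kept without cold for the same time, so cold and plant age cannot be told apart at stages 3 and 4. Each group had 3 biological replicates except the stage 1 buds with 2, and each replicate pooled 120 to 150 buds or apices, a bud having a single leaf primordium and an apex including 1 leaf primordium. Each value is therefore a mean over many organs, and fewer cells with LFY RNA and less LFY RNA per cell cannot be told apart.

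In Arabidopsis, LFY is switched on at the floral transition by the flowering promoters, among them SOC1, the SPL factors and the auxin response factor MP, and it then activates the floral identity genes AP1 and CAL and, with its partner UFO, the petal and stamen genes. TFL1, a relative of the florigen FT, keeps the centre of the shoot vegetative by holding LFY and AP1 out of it, and LFY and AP1 hold TFL1 out of flowers. Arabis alpina is known to form flower buds during prolonged cold, while some of its axillary shoots stay vegetative, and this is how the plant lives on after flowering.

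LFY lies on chromosome 8 at positions 46457059 to 46459751 of the version 5 assembly, on the plus strand. The model has 3 coding exons of 472, 371 and 408 bp, separated by introns of 439 and 1003 bp, and a coding length of 1251 bp. It was placed at 1 locus, and no other annotated gene overlapped it, so its reads have no annotated rival on either strand.

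Library totals were 12.2 to 26.2 megareads of mapped reads, and 21824 to 23524 genes were detected in each library. No 2 libraries of 1 group were so alike that one could be a copy of the other. A list of 7 meristem markers such as STM had no member at 0 in any group. Its summed level was 455 to 591 CPM (counts per megaread of library size) in the bud libraries and 522 to 700 CPM in the apex libraries. Within stages the sum was lower in buds at stage 1 (587 to 591 against 600 to 665), stage 2 (526 to 548 against 639 to 700) and stage 4 (458 to 498 against 557 to 597). At stage 3 the ranges overlapped (455 to 566 against 522 to 623). Single members differed in direction, and WUS had 5.61 CPM in stage 1 buds and 1.38 in stage 1 apices. The other lists were also detected in both tissues, with summed levels of 4640 to 7390 CPM in buds and 5350 to 10500 CPM in apices for 22 leaf mesophyll genes and 29.6 to 56.7 and 29.9 to 45.2 CPM for 5 vascular genes. The vascular sum was higher in buds at stage 1, at 53 to 54.1 against 33.8 to 37 CPM. At stage 2 it was 50.9 to 56.7 against 35.3 to 37.6, and at stages 3 and 4 the ranges overlapped. The mesophyll sum was lower in buds at stage 1 (5180 to 6690 against 8270 to 10500). At stage 4 it was also lower (4640 to 5270 against 5420 to 7340), and at stages 2 and 3 the ranges overlapped. The part of these tissue differences in the LFY results was not tested.

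LFY was barely detected in buds until the last stage and rose there late and steeply, whereas apices held more of it at every stage and gained it earlier. The stage 1 buds had 21 and 17 LFY reads, the stage 2 buds 29, 17 and 22, and the stage 3 buds 30, 29 and 34. The stage 4 buds had 468, 625 and 628 reads, so the lowest of them was far above every earlier bud library. The apices had between 99 and 110 reads at stage 1 and 103, 123 and 105 at stage 2, above every bud library of the first 3 stages.

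After 4 weeks of cold the stage 3 apices had 436, 219 and 250 LFY reads, and after 7 weeks the stage 4 apices had 2892, 2415 and 3010. All 3 stage 3 apices stood above all earlier apices, and all 3 stage 4 apices above all stage 3 apices. Scaled for library size, the mean level in buds was 1.34 ± 0.196 CPM (SD, n = 2) at stage 1, 1.57 ± 0.401 (n = 3) at stage 2, 2.11 ± 0.256 (n = 3) at stage 3 and 36.95 ± 6.63 (n = 3) at stage 4. The mean level in apices was 5.70 ± 0.254, 6.18 ± 0.624, 19.83 ± 4.89 and 136.8 ± 27.4 CPM at stages 1 to 4 (SD, n = 3 each).

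**Figure D1:**
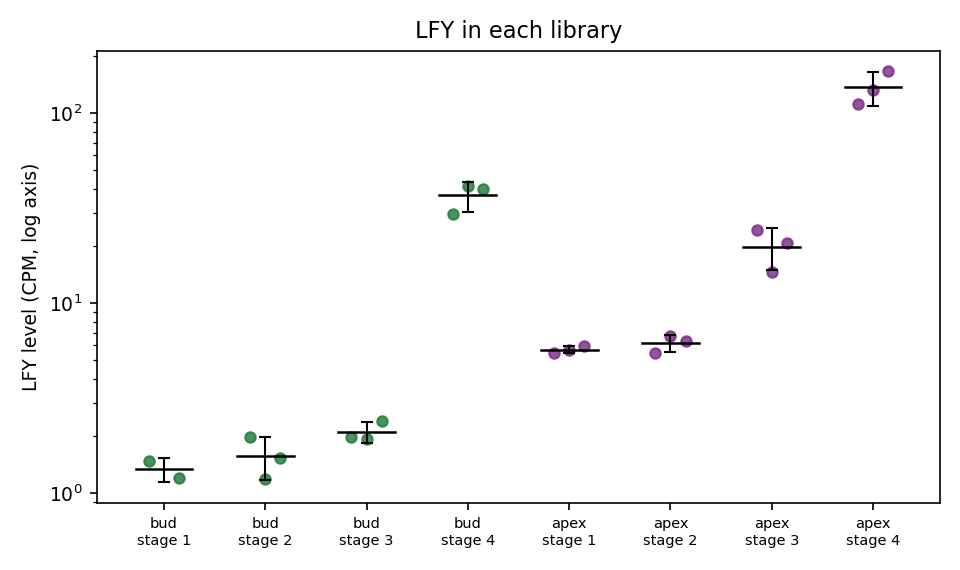
LFY level in each of the 23 libraries by tissue and stage, in CPM on a log axis; points are libraries, black bars the group means and whiskers 1 SD. Buds of stages 1 to 3 sit between 1.19 and 2.40 CPM, below every apex library, and stage 4 buds lie between the stage 3 and the stage 4 apices.

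The place of LFY among all detected genes shows the scale of this change. By the authors' TPM, a level per length of transcript, LFY stood between the 13.55 and the 19.96 percentile of the detected genes in buds of stages 1 to 3 and between the 62.34 and the 71.67 percentile in stage 4 buds. In apices it moved from 27.9 to 31.2 at stages 1 and 2, through 42.53 to 56.06 at stage 3, to 90.34 to 94.35 at stage 4.

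Ordered by mean CPM, the 8 groups ran from stage 1, stage 2 and stage 3 buds through stage 1, stage 2 and stage 3 apices to stage 4 buds and stage 4 apices. Neighbouring groups did not differ beyond their spread among the first 3 bud groups, nor between the stage 1 and stage 2 apices. The other 4 neighbouring pairs did not overlap and passed the test, edgeR's quasi-likelihood test with Benjamini-Hochberg adjustment over 21414 genes, which gives every adjusted p below. Between stage 3 buds and stage 1 apices the step was 1.44 ± 0.241 on the log2 scale (adjusted p = 6.22e-05), where 50.7% of all genes tested were called. The smallest of these 4 steps was from stage 3 apices to stage 4 buds, which were 1.86-fold higher (95% interval 1.46 to 2.37, adjusted p = 0.00134), in a comparison in which 11.5% of all genes were called. That call was narrowly lost in a fit to these libraries alone (adjusted p = 0.0505).

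Buds had less LFY than apices at all 4 stages. The difference was 4.24-fold at stage 1 (log2 −2.08 ± 0.306 SE, adjusted p = 2.77e-05), where 32.8% of all genes tested differed between the tissues. It was 3.91-fold at stage 2 (log2 −1.97 ± 0.253, adjusted p = 5.55e-06), with 37.4% of genes called. It was widest at stage 3, at 9.43-fold (log2 −3.24 ± 0.221, adjusted p = 3.56e-09), with 44.2% of genes called and only 81 genes, LFY included, at or below the LFY difference. At stage 4 it was 3.70-fold (log2 −1.89 ± 0.161, adjusted p = 1.84e-06), while only 3.47% of genes still differed between bud and apex, and LFY had the third-smallest p among them.

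No bud library overlapped the apex range of its own stage. An exact permutation test that exchanged tissue labels within each stage gave a mean difference of −2.07 on the log2(CPM + 0.5) scale, lower in buds at 4 of 4 stages, with a two-sided p = 1.25e-05. This is 1 of 80000 arrangements and the smallest p this test can give. The test treats all libraries of a stage as exchangeable and takes no account of replicate numbers.

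Between successive stages LFY changed at different times in the tissues. From stage 1 to 2, before cold, neither tissue passed the test. The change was 0.23 ± 0.375 in buds (95% interval −0.55 to 1.01, adjusted p = 0.854) and 0.12 ± 0.200 in apices (−0.30 to 0.53, adjusted p = 0.794) on the log2 scale, where 1.16% and 7.58% of all genes were called. From stage 2 to 3, across the first 4 weeks of cold, LFY rose 3.21-fold in apices (log2 1.68 ± 0.185, adjusted p = 4.17e-06, 24.3% of genes called). In buds the value was 1.33-fold, which did not pass (log2 0.42 ± 0.304, 95% interval −0.22 to 1.05, adjusted p = 0.352, 22.2% of genes called).

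From stage 3 to 4 LFY rose 17.5-fold in buds (95% interval 12.8 to 23.9, adjusted p = 4.13e-10), a step at which 47.3% of all genes changed, and 6.88-fold in apices (5.38 to 8.79, adjusted p = 1.27e-08, 9.18% of genes called). LFY had the smallest p of all 21414 genes in both of these steps. In the authors' deposited table the same steps have log2 fold changes of 4.14 in buds and 2.80 in apices, each listed with a false discovery rate of 0, and the authors' deposited table gives 0.22 and 0.11 for the step from stage 1 to 2, each with a rate of 1.

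Some markers of other cell types had other levels after this step in buds. The summed level of the 5 vascular genes was 41.2 to 54.2 CPM in stage 3 buds and 29.6 to 33.6 CPM in stage 4 buds, beside 37.9 to 45.2 and 29.9 to 33.9 CPM in the apices of these stages. Within that list 1 gene described as the sucrose transporter SUC2 (Aa_G371930) had 5.76 ± 2.19 CPM in stage 3 buds, 0.170 ± 0.129 in stage 4 buds and 0.0851 ± 0.103 in stage 3 apices (SD, n = 3 each). Of the 5 vascular genes, 2 fell and none rose at this step in buds, beside 24.2% and 23% of all genes. The leaf mesophyll sum was 5270 to 7390 CPM in stage 3 buds and 4640 to 5270 CPM in stage 4 buds, and of 20 tested genes 7 fell and 2 rose. For a list of 6 trichome genes the sum was 84.8 to 89.3 CPM in stage 3 buds and 89.1 to 95.9 CPM in stage 4 buds, and of 5 tested genes 1 rose and 1 fell. The one that rose was TTG1 (Aa_G45330), by 0.28 on the log2 scale (adjusted p = 0.000716). The one that fell was Aa_G593150, described as glabrous 1, a MYB factor of trichome formation, which had 10.34 ± 3.97 CPM in stage 3 buds, 0.298 ± 0.0924 in stage 4 buds and 0.183 ± 0.248 in stage 3 apices (SD, n = 3 each). The members named here were picked after their values were seen, no vascular or trichome marker and at most 2 of the mesophyll markers were at 0 throughout either bud group, and their part in the LFY result was not tested.

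The timing itself differed between the tissues. The change from stage 3 to 4 was larger in buds than in apices by 1.35 ± 0.278 on the log2 scale (adjusted p = 0.00144), a term for which 29.8% of all genes were called. With limma on log2(TPM + 1), a scale that understates the change of low genes, the value was 0.73 (adjusted p = 0.0344). The change from stage 2 to 3 was smaller in buds by 1.27 ± 0.362 (log2 difference −1.27, adjusted p = 0.0494, 4.66% of genes called). That second call sat at the threshold and was lost in 15 of 20 alternative fits, with adjusted p up to 0.145. Both differences use the same stage 3 libraries and are not independent.

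For the change from stage 1 to 2 the difference between the tissues was 0.11 ± 0.424 (adjusted p = 0.994, with 0.0981% of genes called). Over both cold steps together the rise from stage 2 to 4 was 23.4-fold in buds (95% interval 16.8 to 32.5, 51.1% of genes called) and 22.1-fold in apices (16.8 to 29.0, 33.7% called). The difference between these rises was 0.08 ± 0.293 on the log2 scale (95% interval −0.53 to 0.69, adjusted p = 0.878, 23.5% of genes called). The interval leaves room for a difference in either direction, so the rises were not shown to be equal.

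**Figure D2:**
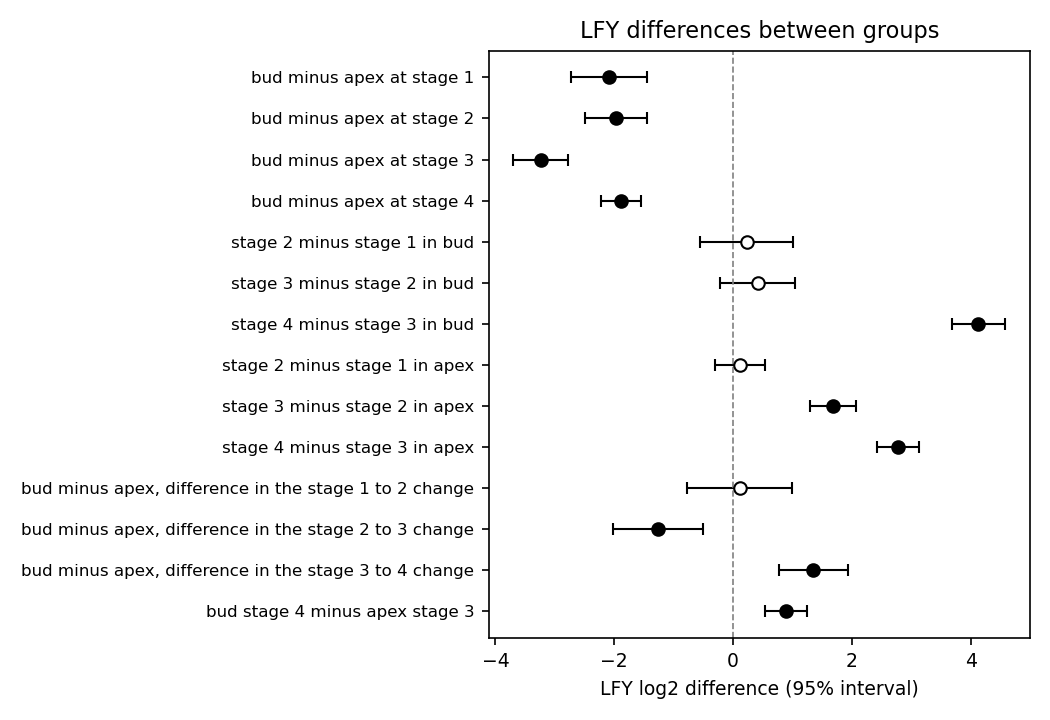
LFY log2 differences for the comparisons named on the vertical axis, with 95% intervals from the edgeR fit; filled points passed an adjusted p of 0.05. The bud minus apex differences lie between −3.24 and −1.89, and among the changes between successive stages the largest rise is 4.13, from stage 3 to stage 4 in buds.

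Genes known from Arabidopsis to act with LFY were paired with Arabis alpina genes by alias (25 genes) or by description (30 genes), 55 in all, of which 46 had enough reads to be tested. A gene paired by description may be a close relative of the one named. They fall into flowering promoters that act on LFY or beside it (13 tested of 17), repressors of flowering or of LFY (21 of 23), and partners and targets (12 of 15).

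TFL1 (Aa_G789610), the antagonist of LFY, was higher in buds, where LFY was lower, at each of the 4 stages, and it fell at the 3 steps at which LFY rose. This pairing rests on the annotated alias, since its description names a dt1 gene, and Aa_G63210, which is described as a terminal flowering protein, had too few reads to be tested. Buds had 481 and 422 CPM of TFL1 at stage 1, 495, 461 and 459 at stage 2, and 530, 462 and 423 at stage 3, and then only 114, 73.8 and 47.5 at stage 4. Apices had 97.8 to 106.5 CPM at stage 1, 94.4, 72.8 and 96.8 at stage 2, 46.9, 41.9 and 23.4 at stage 3, and 15.1, 15.5 and 9.21 at stage 4. Every bud library was above every apex library of its stage. The 21 tested repressors, TFL1 among them, did not all share this order. In buds 4 were higher and 6 lower than in apices at stage 1, and 5 higher and 8 lower at stage 2. At stage 3, 9 were higher and 2 lower. At these stages 32.8%, 37.4% and 44.2% of all genes were called in either direction.

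The bud excess of TFL1 was 4.37-fold at stage 1 (adjusted p = 2.68e-05), 5.36-fold at stage 2 (adjusted p = 3.51e-06), 12.5-fold at stage 3 (adjusted p = 1e-07) and 5.87-fold at stage 4 (adjusted p = 0.000129). TFL1 fell by 2.59 ± 0.274 on the log2 scale in buds from stage 3 to 4 (adjusted p = 1.64e-06). In apices it fell by 1.22 ± 0.272 from stage 2 to 3 (adjusted p = 0.00405) and by 1.496 ± 0.290 from stage 3 to 4 (adjusted p = 0.00398). The last fall and the stage 4 bud excess were lost in fits to only the libraries compared, with adjusted p = 0.0732 and 0.0505. Stage 4 buds and stage 3 apices did not follow this order, since in stage 4 buds LFY was higher and the TFL1 value was higher too, by 1.06 on the log2 scale (adjusted p = 0.0186). That call was lost in a fit to those libraries alone (adjusted p = 0.231) and without bud stage 4 replicate 1 (0.69, adjusted p = 0.0989) or apex stage 3 replicate 3 (adjusted p = 0.0698). Across the 23 libraries TFL1 and LFY had r = −0.931 in log2 CPM, as a description of libraries that share tissue and stage.

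Among the promoters, 6 of the 13 tested rose and 1 fell in apices from stage 2 to 3, beside 11.9% of all genes rising and 12.3% falling. In buds 2 rose and 2 fell at that step (10.2% and 12% of all genes). From stage 3 to 4, 8 rose and 2 fell in buds (23% and 24.2% of all genes), and 7 rose and 1 fell in apices (5.14% and 4.04%). Of these rises in apices, that of SPL4 (adjusted p = 0.0499) was lost in 9 of 14 alternative fits. The rises of FUL and FD were each lost in 3, with adjusted p up to 0.144 and 0.118. The rise of SOC1 was lost in 1 and that of MP in none. FUL had at most 1 read in any library of stages 1 and 2 and SPL4 at most 5 in any bud library before stage 4. They passed the low-count filter through other groups. In buds both could hardly fall at these steps, nor could FUL in apices from stage 2 to 3. In apices SPL4 had 31 to 60 reads at stage 2 and could have fallen at both steps. FUL had 114 to 313 reads in apices at stage 3 and could have fallen from stage 3 to 4. Nothing is read from the counts.

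SPL5 (Aa_G1050), a transcription factor of the SPL family that promotes the floral transition, was low in buds until stage 4 and rose earlier in apices. It had 0.352 and 0.353 CPM in stage 1 buds, 1.10, 2.03 and 0.768 in stage 2 buds, and 1.45, 2.07 and 1.55 in stage 3 buds, against 166, 234 and 278 in stage 4 buds. In apices it had 1.44, 2.13 and 3.91 CPM at stage 1, 8.05, 8.45 and 12.3 at stage 2, 160, 115 and 315 at stage 3, and 325, 302 and 292 at stage 4. The stage 3 apices were already above all but the stage 4 groups, and one of them reached the stage 4 range.

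In apices SPL5 rose by 1.93 ± 0.448 on the log2 scale from stage 1 to 2 (adjusted p = 0.0166), a step at which LFY did not pass. That call was lost without apex stage 1 replicate 1 (adjusted p = 0.0897) or 2 (adjusted p = 0.0735) and without apex stage 2 replicate 3 (adjusted p = 0.0596). From stage 3 to 4 in apices its value was 0.64 ± 0.294, which did not pass (adjusted p = 0.197) but did without apex stage 3 replicate 3 (1.16, adjusted p = 0.00713).

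SPL5 rose by 4.36 ± 0.357 on the log2 scale in apices from stage 2 to 3 (adjusted p = 8.33e-07) and by 7.05 ± 0.448 in buds from stage 3 to 4 (adjusted p = 1.17e-08). At stage 4 its bud and apex levels differed by −0.44 (95% interval −1.06 to 0.18), which did not pass the test, whereas LFY was still lower in buds. Its relative SPL4 (Aa_G381970) had 5, 1 and 3 reads in stage 3 buds against 311, 130 and 618 in stage 3 apices, and 415, 612 and 816 in stage 4 buds.

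Other promoters went the other way at stage 3, when 5 of the 13 were higher and 5 lower in buds than in apices, beside 44.2% of all genes called in either direction. The 5 that were higher were SPL3, TSF, CO, AGL42 and Aa_G98260, a gene paired with AIL6. SPL3 (Aa_G438780), of the same family as SPL5, had 2.30 ± 0.244 CPM in stage 3 buds and 0.144 ± 0.134 in stage 3 apices (SD, n = 3 each, adjusted p = 0.0115), and its r with LFY was −0.395. That call was lost without apex stage 3 replicate 1 (adjusted p = 0.0536). CO (Aa_G356690), the activator of FT in long days, was 4.39-fold higher in buds (adjusted p = 1.96e-07) and AGL42 (Aa_G131050), a MADS-box relative of SOC1, was 1.56-fold higher (adjusted p = 0.00484).

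FUL (Aa_G862480), a MADS-box promoter of flowering whose model here has a coding length of only 213 bp, had no read in any stage 1 library of either tissue. It had 4, 3 and 3 reads in stage 3 buds against 171, 114 and 313 in stage 3 apices. At stage 4 it had 405, 582 and 673 reads in buds and 1178, 740 and 799 in apices, which differed by −0.28 on the log2 scale (95% interval −1.04 to 0.47) and did not pass the test. Of the stage 3 apices, replicate 3 was the highest for SPL4, SPL5 and FUL, whereas replicate 1 was the highest for LFY.

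SOC1 (Aa_G15970), a MADS-box integrator that activates LFY directly in Arabidopsis, rose in both tissues at the first cold step. Its mean level in buds was 3.24, 4.01, 9.80 and 22.04 CPM at stages 1 to 4, and in apices 2.93, 4.63, 11.3 and 19.7 CPM. From stage 2 to 3 it rose 2.44-fold in buds (adjusted p = 0.000146) and 2.44-fold in apices (adjusted p = 7.14e-05). From stage 3 to 4 it rose by 1.17 on the log2 scale in buds (adjusted p = 2.46e-05) and by 0.81 ± 0.178 in apices (adjusted p = 0.00611), and the call in apices was lost without stage 3 replicate 1 (0.63, adjusted p = 0.0505). At stage 3 its bud minus apex difference was −0.20 (95% interval −0.59 to 0.18), which did not pass. LFY was 9.43-fold lower in buds at that stage.

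MP (Aa_G329270), the auxin response factor that switches LFY on in flower primordia, had 219.6 ± 32.2 CPM (SD, n = 3) in stage 3 buds and 663.5 ± 88.3 (n = 3) in stage 4 buds, a 3.02-fold rise (adjusted p = 1.49e-09). In apices it had 374 ± 33.2 CPM at stage 3 and 690.6 ± 44.1 at stage 4 (n = 3 each), a 1.85-fold rise (adjusted p = 2.39e-05). FD (Aa_G514710), the bZIP partner of the florigen FT, rose 2.46-fold in buds from stage 3 to 4 (adjusted p = 1.43e-07).

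Among the 21 tested repressors, none rose and 9 fell in apices from stage 2 to 3, beside the 11.9% and 12.3% of all genes given above, and in buds 1 rose and 2 fell (10.2% and 12%). From stage 3 to 4, 10 fell in apices (4.04% of all genes fell) and 12 fell and 2 rose in buds (24.2% and 23% of all genes). FLC (Aa_G579940), the MADS-box repressor that cold silences, with a model of only 180 bp of coding sequence, fell at the first cold step in both tissues. It fell by 2.17 ± 0.224 on the log2 scale in buds (adjusted p = 3.56e-06) and by 2.67 ± 0.227 in apices (adjusted p = 1.34e-07).

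FLC reads were 233, 198 and 175 in stage 2 buds and 65, 41 and 32 in stage 3 buds, so FLC was low in stage 3 buds in which LFY was still near its stage 2 level. At stage 4 FLC was 3.35-fold higher in buds than in apices (adjusted p = 0.000484). TOE2 (Aa_G207710), an AP2-type repressor of flowering, had 24.77 ± 0.408 CPM (SD, n = 3) in stage 3 buds and 10.92 ± 2.02 in stage 4 buds, and it fell by 1.18 ± 0.128 on the log2 scale at that step (adjusted p = 4.03e-07). Across the libraries its r with LFY was −0.944, and another gene paired with TOE2, Aa_G234670, had r = −0.779.

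UFO (Aa_G355720), the F-box partner of LFY, was detected throughout, between 25.4 and 64 CPM in every library, with r = 0.448 to LFY over the libraries. Its level was 1.89-fold lower in buds than in apices at stage 3 (adjusted p = 3.09e-05), and at stage 4 the value was 1.32-fold higher in buds (log2 0.40, 95% interval 0.11 to 0.68), which did not pass after adjustment. UFO rose 1.75-fold in buds from stage 3 to 4 (adjusted p = 9.44e-05). In apices it fell by 0.50 ± 0.136 on the log2 scale at that step (adjusted p = 0.0227), a call that was lost without stage 3 replicate 1 or 3 or stage 4 replicate 1 or 2, with adjusted p from 0.0605 to 0.123.

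The floral identity targets AP1 and CAL were at or near 0 until stage 4. AP1 (Aa_G283230), a MADS-box gene that LFY activates directly in Arabidopsis, had 0 reads in all 17 libraries of stages 1 to 3, including the stage 3 apices with 219 to 436 LFY reads. It had 35, 16 and 31 reads in stage 4 buds and 526, 544 and 930 in stage 4 apices. The stage 4 buds were lower by 4.27 ± 0.446 on the log2 scale (log2 −4.27, adjusted p = 0.00352), a call that DESeq2 did not make (adjusted p = 0.73).

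CAL (Aa_G92080), the closest relative of AP1, had 0, 1 and 1 reads in stage 3 apices, 20, 18 and 43 in stage 4 buds and 305, 229 and 324 in stage 4 apices. The span of another annotated gene overlaps that of CAL, and whether they share reads was not tested. SEP4 (Aa_G675730), a floral organ co-factor, had 5, 3 and 7 reads in stage 3 apices, 51, 38 and 74 in stage 4 buds and 367, 285 and 522 in stage 4 apices. At stage 4 CAL was lower in buds by 3.02 ± 0.368 (log2 −3.02, adjusted p = 0.000277) and SEP4 by 2.48 ± 0.341 (log2 −2.48, adjusted p = 0.00206), beside −1.89 for LFY.

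AP3 (Aa_G300500), which specifies petals and stamens, was uneven between libraries of 1 group. Its reads were 37, 0 and 1 in stage 4 buds and 67, 125 and 779 in stage 4 apices, and the difference did not pass in edgeR (adjusted p = 0.19), whereas limma on log2(TPM + 1) called it (−3.14, adjusted p = 0.00713), as it did on log2(TPM + 0.1) (−5.04, adjusted p = 0.00861). The other 12 of 14 alternative fits did not call AP3, with adjusted p up to 0.695. PI (Aa_G68100), the partner of AP3, had 67, 88 and 146 reads in stage 4 buds and 255, 150 and 730 in stage 4 apices. Its difference of −1.59 on the log2 scale did not pass in edgeR (adjusted p = 0.08). It was called by DESeq2 (adjusted p = 0.0437), with the replicate block (−1.36, adjusted p = 0.0155) and without apex stage 4 replicate 1 (adjusted p = 0.0357) or 2 (adjusted p = 0.0269). The other 10 of 14 alternative fits did not call PI, with values as small as −0.49 and adjusted p up to 0.619. Apex replicate 3 was the highest stage 4 library for LFY, AP1, CAL, SEP4, AP3 and PI.

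Of the 12 tested partners and targets, 7 rose and none fell in buds from stage 3 to 4, beside 23% of all genes rising. In apices 9 rose and 1 fell at that step, where 5.14% of all genes rose, and the 1 that fell was UFO. AP1, CAL, SEP4, AP3 and both genes paired with SEP2 had at most 7 reads in any library before stage 4 and passed the low-count filter through stage 4, so they could hardly fall, and nothing is read from these counts. At stage 4, 3 were lower and none higher in buds than in apices (2.12% and 1.35% of all genes), which by edgeR were AP1, CAL and SEP4. At the same stage none of the 13 promoters was called in either direction by edgeR, with 3 at an unadjusted p under 0.05, while 6 of the 21 repressors were higher in buds and 1 lower.

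**Figure D3:**
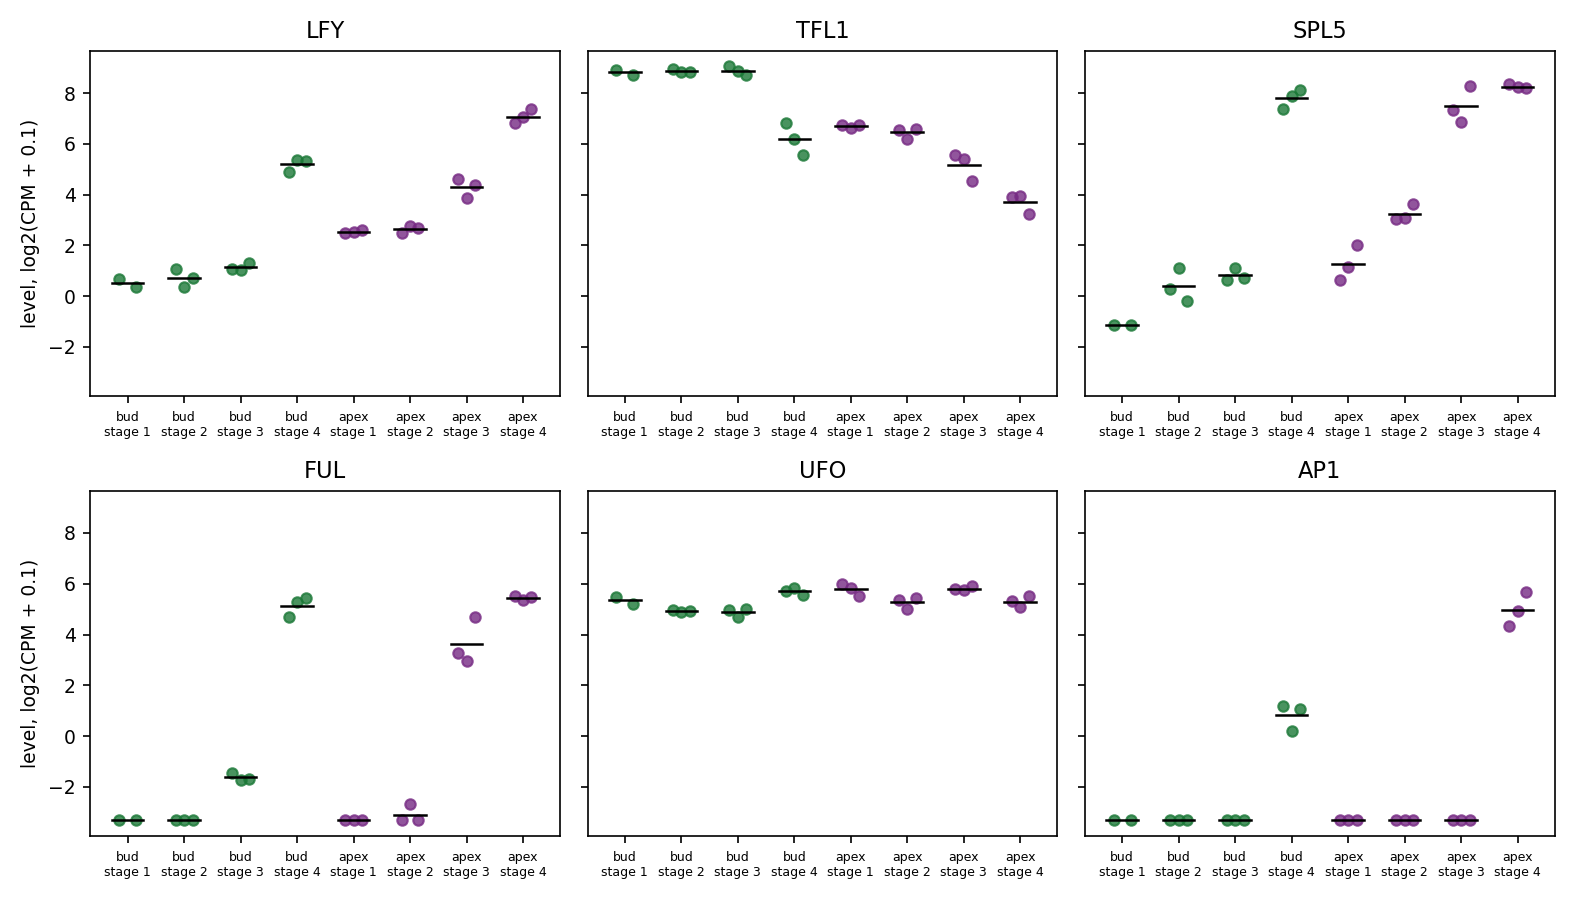
Level in each library on the log2(CPM + 0.1) scale for LFY, TFL1, SPL5, FUL, UFO and AP1, by tissue (green bud, purple apex) and stage; points are libraries and black bars the means of the plotted values. SPL5 and FUL are high from stage 3 in apices and only at stage 4 in buds, TFL1 falls as LFY rises, and AP1 has reads only at stage 4.

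The 10 genes whose log2 CPM profile over the 23 libraries was most like that of LFY had a Pearson r between 0.950 and 0.976. They were Aa_G341720 (described as phosphoethanolamine phosphocholine, r = 0.976), Aa_G164270 (transparent testa 1-like, r = 0.972), Aa_G38090 (gamma-glutamyl phosphate reductase), Aa_G117420 and Aa_G506340 (both uncharacterized), SPL4, Aa_G406160 (E3 ubiquitin-protein ligase SIS3-like), Aa_G144770 (B3 domain-containing), Aa_G299880 (aquaporin PIP1-1) and Aa_G136910 (described only as protein). Over all tested genes, 114 had r over 0.9, and the points share tissue, stage and library, so these values describe a shared profile over the same groups. Ranked on the 8 group means, 5 of the 10 stayed among the 10 most alike.

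The gene most like LFY, Aa_G341720, had 2.09 ± 0.718 CPM (SD, n = 3) in stage 3 buds, 25.47 ± 4.66 in stage 4 buds, 19.32 ± 6.37 in stage 3 apices and 68.65 ± 19.1 in stage 4 apices. It was chosen for this likeness, so its levels are a description. Of the pathway genes, the nearest to LFY after SPL4 were MP (r = 0.947), SPL5 (r = 0.935) and SEP4 (r = 0.921), and AP1 had r = 0.843.

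**Figure D4:**
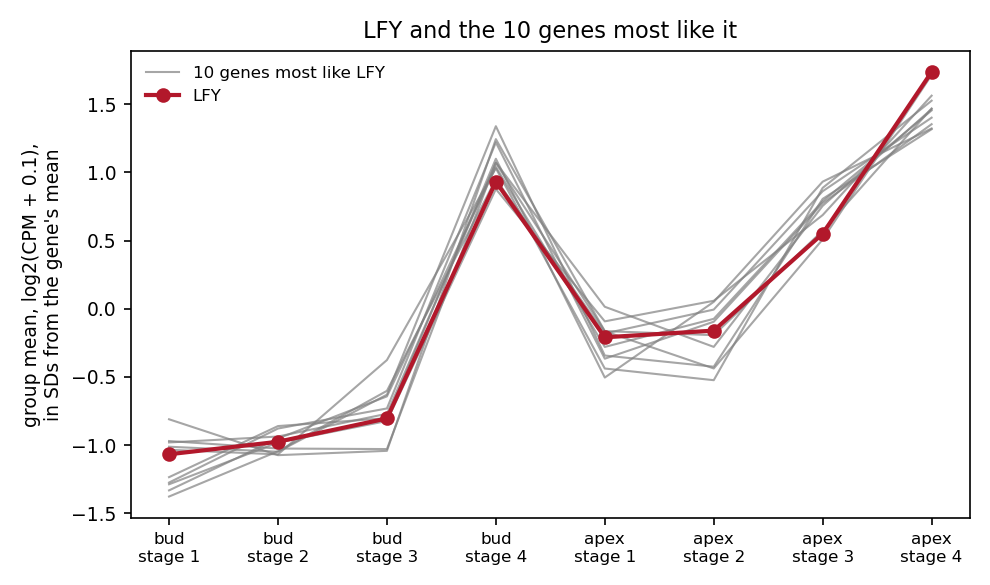
Group means of LFY (red) and of the 10 genes most like it (grey), as log2(CPM + 0.1) in SDs from each gene's own mean over the 8 groups. The profiles were selected for their likeness, and all rise from stage 3 to stage 4 buds.

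The annotated neighbours of LFY varied over a far smaller range. Aa_G61550, described as a probable beta-xylosyltransferase and 3744 bp to the left on the minus strand, had mean levels of 19.22 to 33.46 CPM over the 8 groups. It was 1.54-fold lower in buds at stage 3 (adjusted p = 0.000394) and rose 1.70-fold in buds from stage 3 to 4 (adjusted p = 3.73e-05). Aa_G61530, described as a ubiquitin carboxyl-terminal hydrolase-related protein and 3076 bp to the right on the minus strand, had group means between 1.38 and 2.91 CPM. Its 1.92-fold fall in buds from stage 2 to 3 passed narrowly (adjusted p = 0.0466), and the call was lost in 9 of 14 alternative fits, with adjusted p up to 0.189.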

How the data were processed

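RNA from 23 libraries of bulk buds and apices was sequenced as single-end reads of 150 bp, per the labels. The deposited table gives the count of mapped reads per gene and library, per the file headers, and TPM values made by the authors. For 4 comparisons, log2 fold changes made by the authors were used beside the fits, with their deposited p-values, which are false discovery rates. FastQC is named in the submitters' processing notes; how reads were aligned and counted, and whether strand was used, is not given in the sources used here. Another 46 columns of values by library were not used. Coordinates are those of the deposited version 5 annotation.

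The tests were run in R 4.3.3 with edgeR 4.0.16. There filterByExpr by group (minimum count 10, minimum total 15) kept 21414 genes, libraries were scaled by TMM, and 1 robust quasi-likelihood fit to all 8 groups gave 28 pairs of groups and 4 differences of change, adjusted by Benjamini-Hochberg over all genes with a threshold of 0.05. CPM uses the scaled totals. SEs were derived from the fitted change and its F statistic, and intervals are at 95%. Alternatives were DESeq2 1.42.0, limma 3.58.1 on log2 TPM, other scalings and filters, a replicate block and leaving out libraries.

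The gene, the lists and the tests were chosen with earlier results of these data known. Named genes are LFY, members of the 3 pathway lists, the 10 tested genes with the highest Pearson r to LFY in log2 CPM (prior count 2) over 23 libraries, and the genes next to LFY. Single members of the marker lists and Aa_G63210 are named beside these. The vascular and trichome members were picked after their values were seen. Buds and apices with the same replicate number had correlated deviations from group means at stages 2 and 3 (0.134 to 0.254, each of 6 pairs over 0.1). Some other pairs with the same number were also over 0.1, and samples with different numbers were not compared. Whether the numbers pair the samples is not known, and the main fit has no block. Symbols belong to Arabidopsis and were paired by alias or description. Of the 55 pathway genes, 4 overlap another gene, and none was placed at more than 1 locus.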

Additional observations from a re-analysis of the deposited data

Results flagged for a closer look

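Results on LFY timing stand out because the change between stages itself differed between buds and apices. The change in LFY from stage 3 to 4 was larger in buds, by 1.35 on the log2 scale (adjusted p = 0.00144, edgeR interaction term; 0.73 to 1.51 over 20 alternatives), with all 3 buds and all 3 apices of stage 4 above all libraries of stage 3 in their tissue. The change from stage 2 to 3 was smaller in buds, with a log2 difference of −1.27 (adjusted p = 0.0494), a call lost in 15 of 20 alternative fits. Both differences use the same stage 3 libraries, so they are not independent results. All 3 stage 3 apices were above all stage 2 apices, whereas bud libraries of stages 2 and 3 overlapped.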

How the results depend on the processing

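Of 259 alternative values for the 17 LFY comparisons, 236 kept their direction and their side of the threshold. The difference in the change from stage 2 to 3 was −1.27 (adjusted p = 0.0494). It missed the threshold under RLE scaling (−1.26, adjusted p = 0.0514), without scaling (−1.22, adjusted p = 0.0571), without a filter on low counts (−1.23, adjusted p = 0.0705) and in a fit to the libraries compared (−1.26, adjusted p = 0.0509). Leaving out 1 library gave −1.43 to −1.06, and the call was kept only without apex stage 3 replicate 2. The difference in the change from stage 3 to 4 was called in all 20 alternatives, with values of 0.73 to 1.51 and adjusted p up to 0.0344. Stage 4 buds against stage 3 apices gave 0.90 in a fit to those libraries alone (adjusted p = 0.0505), a fit with fewer samples. The 2 differences of change that did not pass turned sign with limma on log2(TPM + 1), to −0.0075 for stage 1 to 2 and −0.44 for stage 2 to 4, and ranged from −0.0943 to 0.28 and from −0.0838 to 0.28 when 1 library was left out. The cause was not tested.

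Samples with the same replicate number had correlated deviations of −0.368 to 0.254 over 28 pairs, with 13 pairs over 0.1. Pairs of bud and apex were all over 0.1 at stages 2 and 3. Other pairs were too, such as the stage 3 and stage 4 buds of replicate 1 (0.254). Samples with different numbers were not compared, so whether the numbers pair the samples was not tested. With the replicate block, LFY in buds minus apices was −2.02, −1.97, −3.24 and −1.88 at stages 1 to 4, the changes were 0.16, 0.42 and 4.13 in buds and 0.12, 1.69 and 2.77 in apices, and no LFY call changed. Among the other named genes the block changed 1 call, that of PI at stage 4 (−1.36, adjusted p = 0.0155).

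Of 55 called comparisons of other named genes, 40 were called in every alternative and none turned sign. AP1 at stage 4 lost its call under DESeq2 (adjusted p = 0.73). Of 408 alternative counts of list members, 391 were within 1.5 times of the value given, and the largest difference was 4 genes. Low counts limit LFY in early buds: with 17 to 34 reads per library, the 95% interval for the change from stage 2 to 3 in buds ran from −0.22 to 1.05.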
